A study of Sus scrofa with 14 samples.

Results

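ANPEP and DPP4 encode peptidases that sit in the brush border of absorptive enterocytes, and both were read from mucosal scrapings of pig small intestine that had been perfused with digested onion or a saline digest. Their probes were chosen by the RefSeq accession that the array files pair with each probe. This gave 3 probes of ANPEP (A_72_P632095, A_72_P177411 and A_72_P566249) and 1 probe of DPP4 (A_72_P035536), so that 2 of 3023 named genes are described. The study's list of pig genes, selected on a change of more than 1.5-fold, named 0 of these probes.

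The samples came from 7 male piglets of 5 weeks, 1-colour Agilent arrays were used, and each of the 14 arrays held 1 segment. In the small intestinal segment perfusion (SISP) model, neighbouring segments with their blood supply and nerves left in place were filled with 20 ml of fluid and perfused for 6 h in the anaesthetised animal. Pigs 1, 2 and 4 gave a segment with the saline digest (Sd) and 1 with the yellow onion digest (YOd), and pigs 5, 6, 7 and 8 gave an Sd segment and 1 with the white onion digest (WOd). The groups thus held 7 Sd, 3 YOd and 4 WOd segments. By the study's methods, the onion digests were diluted in peptone and the Sd digest, to a greater extent, in a saline solution with casamino acids and glucose, so that the onion and the diluent cannot be told apart. The segments lay between 31% and 58% of the length of the small intestine, and the place of each array's segment within that range is not given in the labels.

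Aminopeptidase N (ANPEP, also CD13) is a zinc enzyme that removes single amino acids from the N-terminus of peptides, and in pigs it also serves as the receptor of transmissible gastroenteritis virus. Dipeptidyl peptidase 4 (DPP4, also CD26) is a serine peptidase that releases dipeptides after proline or alanine, which is how it inactivates the gut hormones GLP-1 and GIP. Both enzymes complete protein digestion at the enterocyte surface, where transporters take up the products. ANPEP is also carried by myeloid cells, and DPP4 by T cells. In scrapings of whole mucosa, fewer cells of a type and less RNA per cell cannot be told apart.

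The tissue was first checked against enterocyte genes. Of 15 enterocyte markers, 9 had no named probe. APOA1, an apolipoprotein of chylomicrons, had no probe below saturation on any of the 14 arrays. The least saturated probes of APOA4 and FABP1 were saturated on 13 arrays each and that of FABP2, a fatty acid binding protein, on 9. EPCAM and SLC5A1, the glucose transporter SGLT1, were above the floor on all 14 arrays. Enterocyte genes were thus among the brightest signals of these arrays. The 75th percentile of the signal, by which each array was scaled, ranged from 385 to 795 units, 50.05% to 70.7% of the probes were well above background, and between 545 and 964 probes per array were saturated.

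DPP4 was at the ceiling of the scanner in every segment. Its median pixel stood at 65528 or 65529 units, the saturation value, on 14 of 14 arrays. The processed signal, which Feature Extraction derives from the spot by subtracting background and correcting for position on the array, had a lowest value of 55023, a median of 57874 and a highest value of 59286 over the 7 Sd segments. It was 57689, 57774 and 55541 in the YOd segments of pigs 1, 2 and 4. In the WOd segments of pigs 5, 6, 7 and 8 it was 58493, 57947, 56038 and 57104. These values overlapped between all groups and spanned 1.08-fold over the 14 arrays, with an SD of 0.03 on the log2 scale. Since the pixels were saturated, the true level of DPP4 is known only as a bound: it was at least 69.2 to 151 times the 75th percentile of the array in the Sd segments, at least 102 to 145 times in YOd and at least 101 to 143 times in WOd. No ratio of onion over Sd can be given for DPP4.

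The same held for 2 of the 3 ANPEP probes. A_72_P177411 and A_72_P566249 were saturated on 14 of 14 arrays, with processed signals from 60070 to 63929 and from 64090 to 75894. A_72_P177411 put ANPEP at at least 77.1 times the 75th percentile in the Sd segment where that bound was lowest. Values of A_72_P566249 above the saturation value come from the positional correction and carry no information on the RNA level. Over the whole array, 453 probes (1.04%) were saturated on all 14 arrays, and 31 named genes, DPP4 among them, had no other probe.

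**Figure D1:**
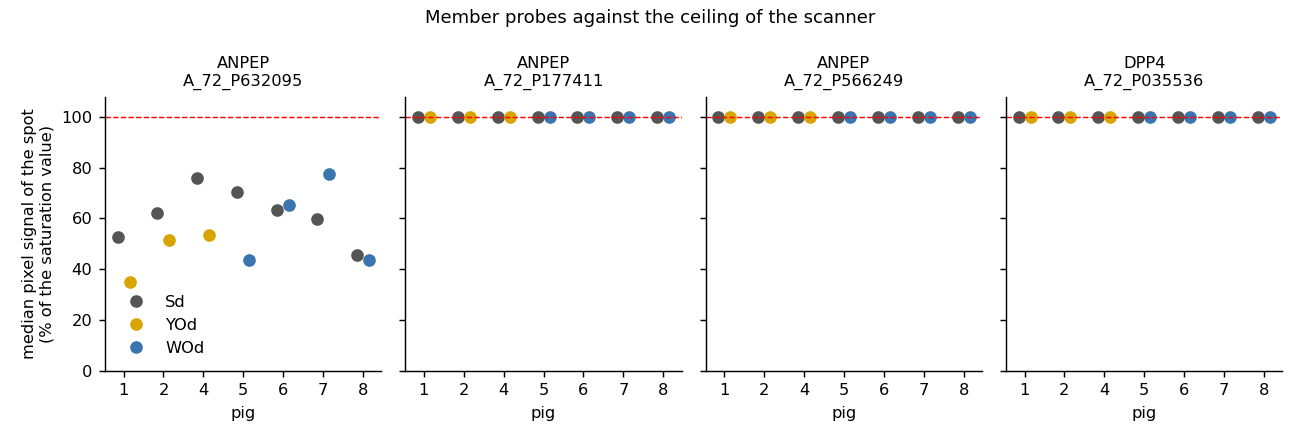
Median pixel signal of the spot, as a percentage of the saturation value, for the 4 probes of ANPEP and DPP4 in each pig; grey points are Sd, yellow YOd and blue WOd segments, and the dashed line marks 100%. A_72_P632095 lies between 34.9% and 77.5%, and the other 3 probes lie on the line in all 14 segments.

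A_72_P632095 was the only probe of either gene that could follow a change. It was well above background and not saturated on all 14 arrays. Its processed signal over the 7 Sd segments had a lowest value of 28753 (pig 8), a median of 39288 (pig 2) and a highest value of 49198 (pig 4). In YOd it was 21039, 31715 and 36699 in pigs 1, 2 and 4, and in WOd it was 26870, 40184, 49193 and 27176 in pigs 5, 6, 7 and 8. The onion and Sd values overlapped.

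Scaled to the array, as log2 of the signal over the 75th percentile, the ANPEP level of this probe was 6.11 ± 0.38 (SD, n = 7) in Sd, with a lowest value of 5.53 in pig 8, a median of 6.06 in pig 7 and a highest value of 6.78 in pig 5. The Sd segments of different pigs thus spanned 2.38-fold. In the pigs that received WOd, the Sd level was 6.18 ± 0.52 (SD, n = 4) and the WOd level 6.11 ± 0.36 (SD, n = 4). In the pigs that received YOd, the Sd level was 6.03 ± 0.11 (SD, n = 3) and the YOd level 5.89 ± 0.23 (SD, n = 3). Ordered by level, Sd and WOd stood above YOd, and each of these neighbours lay within the other's spread.

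**Figure D2:**
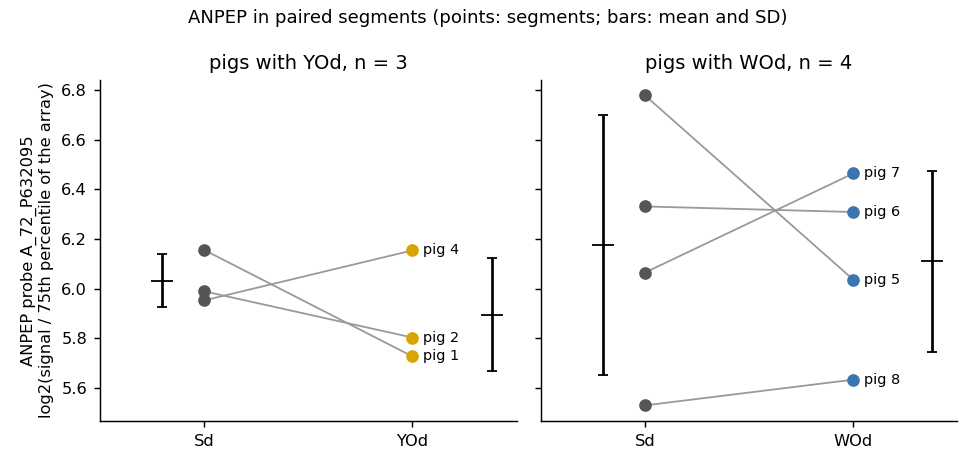
Level of the unsaturated ANPEP probe in the paired segments, as log2 of the signal over the 75th percentile of the array. Lines join the segments of a pig, and bars give the mean and SD of 3 pigs with YOd and 4 pigs with WOd; 4 of the 7 lines run downward and 3 upward.

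Within a pig, the level of ANPEP moved in both directions. In pig 1 it was 6.16 in Sd and 5.73 in YOd, a log2 ratio of -0.43. In pig 2 the levels were 5.99 and 5.80, a log2 ratio of -0.19. In pig 4 they were 5.95 and 6.15, a log2 ratio of 0.20. YOd was thus lower than Sd in 2 of 3 pigs. In pig 5 the level was 6.78 in Sd and 6.04 in WOd, the largest difference, with a log2 ratio of -0.74. In pig 6 it was 6.33 and 6.31, with a log2 ratio of -0.02. Pig 7 had 6.06 in Sd and 6.46 in WOd (log2 ratio 0.40), and pig 8 had 5.53 and 5.63 (log2 ratio 0.10). WOd was lower than Sd in 2 of 4 pigs. Feature Extraction gave this spot an error of 10.0%, the same value as for the saturated probes on every array. It does not measure the spread between segments. Taken at that value, it makes an error of 0.20 for a log2 ratio of 2 spots. The ratio was larger than 0.41, or 2 times that error, in 2 of 7 pigs (pigs 1 and 5), and pig 7 at 0.40 fell just short.

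Neither onion changed ANPEP beyond the spread between pigs. The fitted YOd/Sd log2 difference was -0.14 (SE 0.17, 95% interval from -0.55 to 0.27, limma adjusted p = 0.696, lower in 2 of 3 pigs), where 4.56% of 2349 genes tested passed a raw p of 0.05 and a change of 1.5-fold. The WOd/Sd difference was -0.07 (SE 0.22, interval from -0.57 to 0.44, limma adjusted p = 0.999, lower in 2 of 4 pigs), where 1.54% of 2331 genes passed. Over the 7 pigs, onion/Sd was -0.10 (SE 0.14, interval from -0.41 to 0.22, limma adjusted p = 0.845, lower in 4 of 7 pigs), where 1.3% of 2300 genes passed. The interval over the 7 pigs runs from 0.752-fold to 1.16-fold, which leaves out a change of 1.5-fold either way. The intervals of each onion alone were wider, from 0.683-fold to 1.21-fold for YOd/Sd and from 0.674-fold to 1.35-fold for WOd/Sd.

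Averaged over pigs, the ANPEP log2 ratio came to -0.10 ± 0.39 (SD, n = 7), and the exact two-sided sign-flip permutation test gave p = 0.531, where the smallest p this design allows is 0.0156. The YOd/Sd effect less the WOd/Sd effect was -0.07 (SE 0.30, interval from -0.76 to 0.61, limma adjusted p = 0.982), where 3.75% of 2397 genes passed. A difference between the onions was thus not detectable, and the interval still holds changes of 1.5-fold. No gene passed after Benjamini-Hochberg adjustment in any of the 4 limma comparisons, while 267 (YOd/Sd), 65 (WOd/Sd), 155 (onion/Sd) and 103 genes (difference) had a raw p under 0.05. With pig and slide as blocks, 7, 2, 14 and 0 genes passed after adjustment in that order. That block takes pigs 2 and 7, whose arrays lay on 2 slides, out of the estimate. Without scaling 62 genes passed in YOd/Sd. ANPEP was not among the genes that passed.

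How arrays were scaled set the sign of the ANPEP ratio in pigs 4, 6 and 8, while the means stayed below 0. Without any scaling the log2 ratio of the probe was -0.61, -0.31 and -0.42 in the pigs with YOd, lower in 3 of 3 pigs, with a mean of -0.45 ± 0.15 (SD, n = 3) and an interval from 0.511-fold to 1.05-fold that holds a fall of 1.5-fold (limma adjusted p = 0.555). Pig 4 is the one of these that turned, since the 75th percentile of its YOd array was lower than that of its Sd array by 0.62 on the log2 scale. In the pigs with WOd the unscaled mean was -0.10 ± 0.41 (SD, n = 4). Pigs 1, 4, 5, 6 and 8 had both arrays on 1 slide and gave a mean log2 ratio of -0.18 ± 0.40 (SD, n = 5). Pigs 2 and 7, whose Sd arrays lay on another slide than their onion arrays, gave -0.19 and 0.40. Pig 5 decided the sign of the mean over the 7 pigs, which was 0.01 without it, and pig 1 that of YOd/Sd, which was 0.01 without it.

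The saturated probes gave ratios of another kind. Their scaled log2 ratios for YOd/Sd had means of 0.31 (A_72_P177411), 0.35 (A_72_P566249) and, for DPP4, 0.31, each above 0 in 3 of 3 pigs. The 75th percentile fell from the Sd to the YOd array by a mean of 0.31 ± 0.27 (SD, n = 3) in the same pigs, and dividing a constant signal by it gives that shift. In pig 4 DPP4 read 0.64 and the scaling shift was 0.62. In pig 5 DPP4 read -0.08 and the shift was -0.09, and in pig 8 DPP4 read 0.17 and the shift was 0.19. Without scaling, the mean change of DPP4 was 0.01 in the YOd pigs and -0.01 in the WOd pigs. The probe of DPP4 thus followed the array's scale, pig by pig. A_72_P632095 lay near that shift in pigs 6 and 8 and apart from it in the other pigs.

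**Figure D3:**
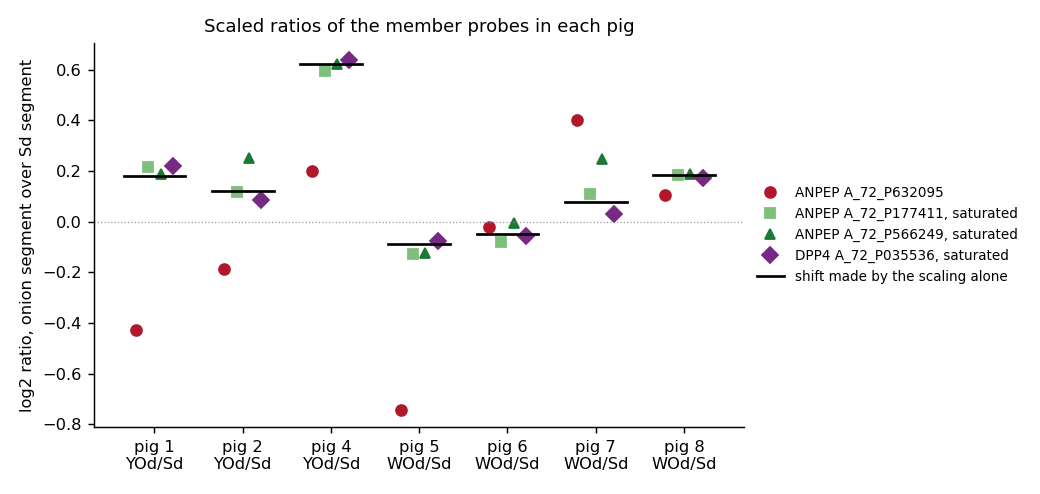
Scaled log2 ratio, onion over Sd, of the 4 probes in each pig; black bars give the shift that dividing by the 75th percentile makes for a signal that does not change. The 3 saturated probes lie within 0.17 of the bar in each pig (0.64 for DPP4 against 0.62 in pig 4), and the unsaturated ANPEP probe lies farther from it in pigs 1, 2, 4, 5 and 7, at -0.74 in pig 5.

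The log2 values that the authors deposited carry the same feature. Over the 14 arrays, the deposited values of DPP4 correlated with minus the log2 of the array's 75th percentile with r = 0.972, and those of the saturated ANPEP probes with r = 0.967 and 0.954. For A_72_P632095 that r was 0.328. These are descriptions over arrays of which each pig gave 2. By the study's methods the spot with the highest value stood for a gene with several spots, and for ANPEP this is A_72_P566249, saturated on 14 arrays. Its fitted YOd/Sd value, 0.35 with a limma raw p of 0.0606 comes from a saturated signal and is not read as a change.

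The other peptidases of the brush border were read as the setting of the pair. Of 15 listed genes, 5 had no named probe (CPM, MEP1A, MEP1B, MME and NAALADL1), DPP4 was saturated and 9 were tested, all 9 above the floor on 14 arrays. In YOd/Sd 1 of 9 rose and 0 fell, against 3.58% and 0.979% of all genes tested, and the median log2 difference was -0.14 against 0.12 over all genes. The direction of the calls over all genes turned with the scaling: without it 1.15% rose and 7.19% fell in YOd/Sd, and of the 9 peptidases FOLH1 rose while DPEP1, ENPEP and XPNPEP2 fell. In WOd/Sd 0 rose and 0 fell, against 0.944% and 0.601%, with a median of -0.04 against 0.04. That 0 rested on pig 7, since without it FOLH1 rose by 1.30 on the log2 scale (limma adjusted p = 0.217) while DPEP1 fell by 1.12 (limma adjusted p = 0.501) and XPNPEP2 by 1.64 (limma adjusted p = 0.383). Pig and slide as blocks gave the same fit, since that block takes pig 7 out of the WOd/Sd estimate. In onion/Sd 1 rose and 0 fell, against 1.04% and 0.261%, with a median of -0.10 against 0.07. In the difference between the onions 0 of 9 passed in either direction, against 2.29% of all genes above and 1.46% below 0.

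FOLH1, which trims glutamate from folate and from peptides, was the gene that rose. Its log2 ratio was 2.53, -0.03 and 2.13 in the YOd pigs and 2.00, 1.20, -1.14 and 0.72 in the WOd pigs. It was higher with onion in 5 of 7 pigs, the others being pigs 2 and 7. The fit gave 1.54 (SE 0.48, limma adjusted p = 0.419) for YOd/Sd and 1.06 (SE 0.39, limma adjusted p = 0.668) for onion/Sd. FOLH1 took its name from the study's list, which was selected on changes in these samples, so its direction is not independent evidence. Without pig 1, 4 or 5 the onion/Sd difference was 0.81, 0.88 and 0.90 and no longer passed (limma raw p of 0.0615, 0.0589 and 0.0596), and without pig 1 the YOd/Sd difference was 1.05 (limma raw p of 0.0936). Pig and slide as blocks took pigs 2 and 7, the pigs in which FOLH1 was not higher, out of the estimate. FOLH1 then passed after adjustment, at 2.33 in YOd/Sd (limma adjusted p = 0.018) and 1.71 in onion/Sd (limma adjusted p = 0.0218). The YOd/Sd value is that of the fit without pig 2, so it is not separate evidence.

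ENPEP, the aminopeptidase A that removes acidic residues, belongs with ANPEP to the M1 family of aminopeptidases. Its log2 ratio was -0.54, -0.13 and -0.35 in the YOd pigs and -0.24, -0.25, -0.17 and -0.25 in the WOd pigs, below 0 in 7 of 7 pigs. The onion/Sd difference was -0.28 (SE 0.09, limma adjusted p = 0.668), short of 1.5-fold. Its limma raw p of 0.0146 became 0.0526 without pig 1 and 0.261 without the pig as a block. Of the brighter ENPEP probes, that saturated on 2 arrays had a mean log2 ratio of -0.12 and was lower in 5 of 7 pigs. That saturated on 12 arrays had 0.11, which is not read as a change.

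DPEP1, a membrane dipeptidase, and XPNPEP2, the membrane-bound aminopeptidase P that cuts before proline, varied most like ANPEP over the 7 pigs. DPEP1 had log2 ratios of -1.01, -0.04 and 0.19 with YOd and -2.16, -0.32, 0.51 and -0.88 with WOd. XPNPEP2 had -1.60, 0.09 and -0.21 with YOd and -3.13, -0.62, 1.25 and -1.18 with WOd. As for ANPEP, pig 5 was lowest and pig 7 highest for both genes. Neither passed in a comparison, with onion/Sd differences of -0.53 (SE 0.27, limma adjusted p = 0.739) and -0.77 (SE 0.41, limma adjusted p = 0.739). Without pig 7 both fell past the thresholds in onion/Sd, by 0.70 (DPEP1, limma adjusted p = 0.398) and 1.11 (XPNPEP2, limma adjusted p = 0.349) on the log2 scale, and neither passed after adjustment.

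ACE, which takes dipeptides from the C-terminus, differed little, with an onion/Sd value of 0.09 (SE 0.13, limma adjusted p = 0.837). GGT1, which splits the gamma-glutamyl bond of glutathione, had 0.13 (SE 0.15, limma adjusted p = 0.816). TMPRSS15, the enteropeptidase that activates trypsinogen, had 0.25 (SE 0.19, limma adjusted p = 0.751), and in YOd/Sd it was higher in 3 of 3 pigs at 0.41 (SE 0.15, limma adjusted p = 0.419), short of 1.5-fold.

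**Figure D4:**
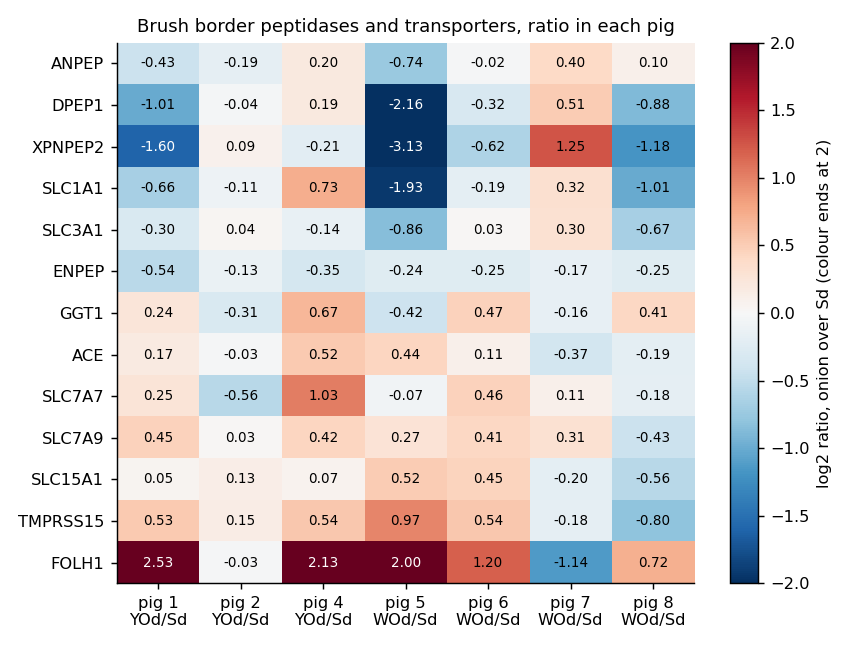
Log2 ratio of onion over Sd in each pig for ANPEP, 7 other measured brush border peptidases and the 5 measured transporters; red is higher and blue lower with onion, and the colour ends at 2. ANPEP, DPEP1 and XPNPEP2 share their lowest value in pig 5 and their highest in pig 7, FOLH1 has the opposite sign in both pigs, and ENPEP is below 0 in all 7 pigs.

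Transporters take up what these enzymes release. Of 16 listed, 5 were tested and 0 passed in any of the 4 comparisons, where 4.56% (YOd/Sd), 1.54% (WOd/Sd), 1.3% (onion/Sd) and 3.75% (difference) of all genes did, so that the count does not set them apart. The onion/Sd median was 0.07 against 0.07 over all genes. With 1 pig left out, SLC7A7 passed upward in YOd/Sd (without pig 2) and SLC1A1 downward in WOd/Sd (without pig 7) and in onion/Sd (without pig 4). SLC15A1, the peptide transporter PEPT1, had log2 ratios of 0.05, 0.13 and 0.07 with YOd and 0.52, 0.45, -0.20 and -0.56 with WOd, and an onion/Sd difference of 0.07 (SE 0.14, limma adjusted p = 0.89).

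The ratio of ANPEP was set against the ratio of each of the 13 other measured peptidases and transporters over the 7 pigs, as 1 family of 13 relations chosen after the values were seen. The highest were DPEP1 (Pearson r = 0.871, exact permutation p = 0.01, adjusted 0.077; Spearman rho = 0.857, exact p = 0.024, adjusted 0.31) and XPNPEP2 (r = 0.866, exact permutation p = 0.012, adjusted 0.077; rho = 0.75, exact p = 0.066, adjusted 0.382). SLC1A1, a glutamate transporter, had r = 0.787 (exact permutation p = 0.035, adjusted 0.153; rho = 0.714, exact p = 0.088, adjusted 0.382). None passed after adjustment. Without pigs 5 and 7, which lay farthest from the median ANPEP ratio, r was 0.499 for DPEP1, 0.413 for XPNPEP2 and 0.407 for SLC1A1 over 5 pigs. The ANPEP ratios of those 5 pigs span a narrower range, so the size of r rests on pigs 5 and 7. Over the 5 pigs with both arrays on 1 slide, pig 5 among them, r was 0.894 for DPEP1, 0.928 for XPNPEP2 and 0.78 for SLC1A1, given as descriptions. GGT1, with r = 0.462 over the 7 pigs, was the highest of the 13 in both subsets. Its r was 0.937 over the pigs on 1 slide and 0.598 without pigs 5 and 7.

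Some genes of the upper small intestine moved in the same pigs. Of 8 listed, 6 were tested and 3 rose in onion/Sd (FOLH1, PDX1 and SLC46A1), where 1.04% of all genes did. ONECUT2, CYBRD1 and GATA4 did not pass, with onion/Sd differences of 0.42, -0.02 and 0.03. FOLH1 and ONECUT2 count here by the names they took from the study's list, so the count and the summed level are not independent evidence. The log2 ratio of the summed level of the 6 genes was 1.59, -0.09 and 1.36 in the YOd pigs. In the WOd pigs it was 1.53, 0.90, -0.76 and 0.73. It was thus among the highest in pigs 1 and 5, where ANPEP was lowest, and lowest in pig 7, where ANPEP was highest. Other pigs went the other way: the ANPEP ratio had the same sign in pigs 2 (-0.19), 4 (0.20) and 8 (0.10). For 3 measured genes of the lower small intestine, the summed log2 ratio was 0.04, 0.00 and -0.57 in the YOd pigs. In the WOd pigs it was -0.19, -4.15, 0.81 and -0.69. The value of -4.15 in pig 6 came from FABP6, at -6.04, while SLC10A2 had -0.51 and GCG 0.32 there. What part either set had in the ANPEP ratios was not tested.

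The closest relatives of the pair were sparsely covered. Of 11 listed M1 aminopeptidases, 3 were tested (ANPEP, ENPEP and LNPEP) and 0 passed in the 4 comparisons, where 1.3% to 4.56% of all genes did, a share at which 0 of 3 says nothing of the family. Of 7 genes of the DPP4 family, DPP4 was saturated and PREP, a cytosolic prolyl endopeptidase, was the 1 that could be tested, with an onion/Sd difference of 0.09 (SE 0.11, limma adjusted p = 0.826). Among 11 substrates and partners of DPP4, 7 were tested in onion/Sd and 0 passed, against 1.3% of all genes. CXCL12, a chemokine that DPP4 truncates, had log2 ratios of 1.34, 0.16 and 0.32 with YOd and -0.19, -2.74, -0.39 and -0.46 with WOd, above 0 in 3 of 3 and below 0 in 4 of 4 pigs. It fell in WOd/Sd by 0.95 on the log2 scale (SE 0.41, limma adjusted p = 0.999), where 0.601% of all genes fell, and its YOd/Sd difference of 0.60 (SE 0.25, limma adjusted p = 0.428) did not pass. The YOd/Sd effect less the WOd/Sd effect passed at 1.55 (SE 0.61, limma adjusted p = 0.932), where 2.29% of all genes did. The WOd/Sd call was lost without pig 6, where the difference was -0.35, and without pig 8, where it was -1.11, and the call between the onions was lost without pig 1, where it was 1.18. GCG, which encodes GLP-1, had log2 ratios from -1.27 in pig 5 to 0.56 in pig 7.

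The transcription factors known to drive enterocyte genes showed no call in YOd/Sd, WOd/Sd or onion/Sd among the 8 of 13 that were tested, where 4.56%, 1.54% and 1.3% of all genes passed. In the YOd/Sd effect less the WOd/Sd effect 1 of the 8 passed downward, where 1.46% of all genes did. This was KLF5, an epithelial factor, at -0.72 (SE 0.26, limma adjusted p = 0.932), which was lower with YOd in 3 of 3 pigs (-0.81, -0.04 and -0.71). Without pig 1, 4, 6 or 8 the KLF5 value between the onions was -0.58, -0.63, -0.65 and -0.64 and no longer passed. In YOd/Sd alone KLF5 had -0.52 (SE 0.19, limma adjusted p = 0.419), short of 1.5-fold. It passed at -0.76 (limma adjusted p = 0.0918) without pig 2, which is the same fit as with pig and slide as blocks.

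Other cell types that carry these enzymes were checked beside the ratios. Of 10 myeloid markers, 6 were measured, all 6 above the floor on 14 arrays, and their summed level ran from 4.08 to 5.56 in Sd, 4.79 to 5.22 in YOd and 4.04 to 5.19 in WOd on the log2 scale. The log2 ratio of that sum was 0.53, -0.06 and 0.38 in the YOd pigs and 0.03, -0.04, 0.07 and -0.37 in the WOd pigs. The members differed in pigs 1 and 5, which had the lowest ANPEP ratios. S100A8, S100A9, S100A12 and CD14 had their highest ratios there, at 1.06, 1.51, 1.04 and 0.68 in pig 1 and 0.81, 1.26, 0.49 and 1.03 in pig 5. CD163 and AIF1 had 0.43 and 0.33 in pig 1 and -0.19 and -0.05 in pig 5. Of 13 T and B cell markers, 9 were measured, with a summed level from 1.76 to 4.01 in Sd, 3.10 to 3.25 in YOd and 1.72 to 3.94 in WOd, and the B cell gene MS4A1 was above the floor on 3 arrays. No marker of either list passed in onion/Sd, where 1.3% of all genes did. CD3D, a T cell receptor subunit, passed in the YOd/Sd effect less the WOd/Sd effect at 0.69 (SE 0.27, limma adjusted p = 0.932), where 2.29% of all genes passed upward, being lower with WOd in 4 of 4 pigs and higher with YOd in 2 of 3. That call was lost without pig 4, 6 or 7, at 0.48, 0.58 and 0.64. It was also lost in the authors' processed values (0.42), without scaling (0.41) and without the pig as a block. CD3D was dim, with a mean level of -2.55 in Sd. The brighter subunits CD3E and CD3G (1.39 and 1.35 in Sd) did not pass, with values of 0.33 and 0.32 for the same difference. Each was higher with WOd in 2 of 4 pigs. What part these cells had in the signal of ANPEP or DPP4 was not tested.

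Across the arrays, the level of ANPEP was compared with that of 2082 genes above the floor on all 14 arrays. The closest were TRPV4, a cation channel (r = 0.856), SIRT7, a nuclear deacylase (r = 0.829), TRIM39 (r = 0.814), MFSD6 (r = 0.776) and NCOA2, a nuclear receptor coactivator (r = 0.766). Over all genes the median r was -0.11 and the 95th percentile 0.51. Over the 7 Sd arrays alone the closest were SIRT7 (r = 0.967), NCOA2 (r = 0.953), STAT3 (r = 0.944), IKBKG (r = 0.944) and ATXN3 (r = 0.942), with a median of -0.05 and a 95th percentile of 0.69. These are descriptions, since all levels share the scale of their array and each pig gave 2 of the 14 arrays. Among genes picked after their values were seen, LNPEP stood at rank 24 (r = 0.867) over the Sd arrays, while SLC5A1 stood at rank 2052 (r = -0.838) and S100A9, a neutrophil protein, at rank 2054 (r = -0.841). Over the 14 arrays they stood at ranks 274 (r = 0.326), 1875 (r = -0.484) and 2077 (r = -0.775) in that order.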

How the data were processed

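RNA from 14 segments of 7 pigs was hybridised to 1-colour Agilent pig arrays. For each of 43803 spots the authors deposited the processed, median pixel, background-subtracted and local background intensity, made by Feature Extraction 10.7.3.1, and a table of log2 values whose methods name flooring and log2. The normalization and the centring of those log2 values are not given in the sources used here.

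From the processed signal intensity, spots of a probe were averaged without outlier spots, scaled to the array's 75th percentile, floored at the pooled 40th percentile and put on the log2 scale. Probes were named by accession through a RefSeq table of Sscrofa11.1, which served for names only, and 6686 of 43603 probes matched. A further 4 probes took names from the study's list, which was selected on changes in these samples. Other probes of these genes may exist among unnamed probes and were not used here.

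limma 3.58.1 in R 4.3.3 was fitted across all genes with the pig as a block, because both segments of a pair came from 1 animal. After group means were removed, same-pig arrays correlated, with r between 0.469 and 0.74 over 2300 genes. Each gene was to be represented by its brightest probe. That probe is saturated for both ANPEP and DPP4, so the brightest probe saturated on no array is reported instead (2921 genes have one), and no fitted value of DPP4 is read as a change. Calls used a raw p of 0.05 and 1.5-fold, after the study's methods, and Benjamini-Hochberg adjustment ran over all genes of a fit. Python 3.11.15 was used for exact permutation tests over pigs. The scripts were checked on simulated data.

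The members and gene lists were chosen with earlier results of these data known. Genes named are ANPEP and DPP4, listed genes that passed a comparison, the measured brush border peptidases and SLC15A1, examples from other lists, and the 5 genes most correlated with ANPEP, and some measured genes of the lists are counted but not reported here by name. The number of arrays limits the precision. No sequences and no promoter motif search are given, as no sequence tables of these genes were at hand.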

Additional observations from a re-analysis of the deposited data

How the results depend on the processing

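No DPP4 value under any setting can be read as a change, since each comes from a saturated probe, and its planned correlations with ANPEP, over the Sd segments and over the ratios, were not run because its only probe was saturated. The promoter motif search was not run. ANPEP passed no threshold under any setting. Its log2 difference stayed below 0 under the other scalings, background correction, floor, filter and probe settings, except as follows. The brightest probe, saturated on all arrays, gave 0.35 for YOd/Sd, 0.0754 for WOd/Sd, 0.19 for onion/Sd and for the mean ratio, and 0.28 for YOd/Sd minus WOd/Sd. Pig and slide as blocks, which takes pigs 2 and 7 out of the estimate, gave 0.11 for YOd/Sd minus WOd/Sd. With 1 pig left out, YOd/Sd ranged from -0.31 to 0.0076 (without pig 1), WOd/Sd from -0.22 to 0.16 (without pig 5), onion/Sd and the mean ratio from -0.18 to 0.0112 (without pig 5), and YOd/Sd minus WOd/Sd from -0.30 to 0.0827, above 0 without pig 1 (0.07) and without pig 7 (0.0827). Without scaling between arrays, a setting chosen after the data were seen, ANPEP was -0.45 in YOd/Sd and -0.25 in onion/Sd.

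Without the replicate block the ANPEP values were the same, with a limma raw p from 0.552 to 0.859.

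The genes past the raw p of 0.05 and 1.5-fold, with the brightest probe of each gene, numbered 112 for YOd/Sd, 29 for WOd/Sd, 31 for onion/Sd and 88 for YOd/Sd minus WOd/Sd. In that order they numbered 20, 17, 20 and 47 with no filter on dim genes, 20, 10, 10 and 5 with no replicate block, 15, 6, 12 and 31 with normexp, 327, 89, 79 and 191 with pig and slide as blocks, 10, 12, 16 and 38 in the authors' processed values and 1303, 327, 216 and 1570 over every probe. Quantile normalization gave 64 for YOd/Sd, and no scaling 16 for onion/Sd. With 1 pig left out they ranged from 49 to 327, 38 to 89, 18 to 50 and 44 to 155. With the brightest probe of each gene, 0 genes passed after adjustment, and with pig and slide as blocks 114, 2, 15 and 0 did. That block takes pigs 2 and 7 out of the estimate, so its 327 and 89 calls are those without pig 2 and without pig 7. What else moved the counts between settings was not tested. Saturation, at 453 probes on all arrays, limits what can be read of the brightest genes.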
